A study of Mus musculus with 8 samples.

Results

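Malat1, Neat1, Gas5 and Kcnq1ot1 are 4 long noncoding RNAs, and they are described here across single hematopoietic stem cells of the long-term class (LT-HSC) from old mice. They were chosen by name, as 4 of the 18174 gene symbols in the tables of 8 libraries, and each of the 4 had a row in every table. The mice were untreated C57BL/6J males aged 18 months, and the cells were taken from their marrow. They were sorted as Lin-CD150+CD48-CD34-Kit+Sca1+ and then as Dlk1+ or Dlk1-, which gave 4 libraries of each sort. Dlk1 is a surface protein of the Notch ligand family, and the gate is the only difference between the groups that the labels state. Replicates 1 and 2 of both sorts came from plate 5 and replicates 3 and 4 from plate 6 according to the table names. Bones were pooled and the number of mice behind each library is not named, so p-values measure only the spread between libraries, which may be technical. Values come from mCEL-Seq2, which captures RNA by its poly(A) stretch and marks it with a barcode for the cell and a random tag for the molecule (unique molecular identifier, UMI).

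Malat1 is a very abundant nuclear RNA that lies in nuclear speckles, the compartments rich in splicing factors. Neat1 is the scaffold of paraspeckles, nuclear bodies that hold proteins such as Sfpq and Nono. Gas5 is the spliced host transcript of small nucleolar RNAs (snoRNAs), which are cut from its introns. Its mature form opens with a pyrimidine tract of the kind found in mRNAs of the translation machinery, is exported to the cytoplasm and is degraded there when ribosomes read it, so of the 4 it is the least confined to the nucleus. Kcnq1ot1 is an unspliced antisense RNA made from the paternal copy of the Kcnq1 domain, where it silences neighbours such as Cdkn1c in cis.

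In GENCODE M21, which uses the mm10 assembly named in the submitters' processing notes, Malat1 lies at chr19:5795690-5802672 on the minus strand and Neat1 at chr19:5824708-5845478 on the same strand, 22035 bases apart. Gas5 lies at chr1:161034422-161038539 on the plus strand, holds 10 annotated snoRNA entries and overlaps the protein-coding gene Zbtb37 on the other strand. Kcnq1ot1 lies at chr7:143203458-143296549 on the minus strand, inside Kcnq1, as 1 exon of 93092 bases. Whether the counting used strand is not given in the sources used here, so reads from Kcnq1ot1 and from introns of Kcnq1 could not be told apart. Of the 10 genes listed for the Kcnq1 domain, 8 had transcripts in the summed cells. Kcnq1 itself was not among the 8, so it was not tested.

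Because the method captures RNA by poly(A), the stretches of the members that bear on capture are shown, from the GENCODE M21 transcripts, 5′ to 3′, with the run of A or the AATAAA signal in capitals. Malat1 is known to end at an A-rich tract encoded in the genome, made when a tRNA-like small RNA is cut off downstream, and not at a poly(A) tail. The first stretch (chr19:5795928-5796089, minus strand) holds that tract at bases 6674 to 6685 of the 6983-base transcript.
Malat1: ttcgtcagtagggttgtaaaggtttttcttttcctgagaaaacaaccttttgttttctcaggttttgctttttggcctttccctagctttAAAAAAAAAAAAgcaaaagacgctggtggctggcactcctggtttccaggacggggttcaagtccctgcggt
Kcnq1ot1 (chr7:143226905-143227025, minus strand) is shown around its longest run of A, of 41 bases, which lies 23487 bases before the annotated end.
Kcnq1ot1: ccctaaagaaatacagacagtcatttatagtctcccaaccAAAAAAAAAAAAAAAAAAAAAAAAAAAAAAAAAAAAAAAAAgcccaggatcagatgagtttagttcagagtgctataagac
The short form of Neat1 (chr19:5842307-5842366, minus strand) ends behind an AATAAA signal, whereas the last 60 bases of the long form (chr19:5824708-5824767, minus strand) hold none. The longest Malat1 transcript and Kcnq1ot1 also have AATAAA in their last 50 bases, which are not shown.
Neat1 short form: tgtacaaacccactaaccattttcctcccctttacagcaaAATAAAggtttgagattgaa
Neat1 long form: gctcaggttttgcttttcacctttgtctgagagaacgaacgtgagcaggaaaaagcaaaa
Runs of at least 12 A were found once in Malat1 and 8 times in Kcnq1ot1, and in no annotated form of Neat1 or Gas5. Of all 141767 transcripts, 4.07% held such a run, and 19.2% of those whose length was within a factor of 1.25 of that of Malat1. AATAAA stood in the last 50 bases of 26.6% of the transcripts of at least 50 bases. The tables give no read positions, so which of these stretches was captured is not known from them.

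Gas5 is shown at its 2 RefSeq starts (GRCm38.p6), from 20 bases before the start, with the longest pyrimidine tract that opens with C within 3 bases of the start in capitals. The first window is chr1:161034581-161034640 and the second chr1:161035146-161035205, both on the plus strand.
Gas5 start 1: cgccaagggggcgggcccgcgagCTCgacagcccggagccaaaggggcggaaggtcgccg
Gas5 start 2: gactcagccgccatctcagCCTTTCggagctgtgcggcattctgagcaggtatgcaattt
The tract had 6 bases at the second start and 3 at the first. A tract of at least 5 bases placed in the same way stood at 11.5% of the 32851 RefSeq starts and at 35.9% of the 78 starts of ribosomal protein genes.

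The first 96 barcodes of the Dlk1+ and the last 96 of the Dlk1- libraries with at least 1000 transcripts were kept as cells and the 10 barcodes 17, 20 to 24 and 29 to 32 were dropped, which left 220 Dlk1+ and 321 Dlk1- cells. The Dlk1- libraries 1 to 4 held 96, 36, 95 and 94 cells and the Dlk1+ libraries 86, 27, 26 and 81. Dlk1+ replicate 3 stood apart: its cells had a median of 1300 transcripts, against 3421 to 5584 in the other 7 libraries, and its sum was 39066 transcripts, against 102474 to 517496. The gene of the sorted protein, Dlk1, averaged 507 CPM (transcripts of a gene per 1000000 transcripts of its library) in Dlk1+ against 28.6 CPM in Dlk1- libraries (log2 fold change 4.81). All 11 stem cell markers (Procr, Slamf1, Mecom and others) were present, with summed levels of 1766 to 2981 CPM, while no UMI was listed for any of the 5 T cell markers. Of 7 myeloid markers 6 were present, all but Lyz2, with summed levels of 191 to 367 CPM in the Dlk1- libraries. The summed markers were at 21.7 to 147 CPM for erythroid cells, 68.3 to 307 for megakaryocytes, at most 34.7 for B cells and 4.19 to 78.1 for stroma. In the Dlk1+ libraries the summed myeloid markers ran from 0 to 5102 CPM, the highest in Dlk1+ replicate 4, where 1 cell held 771 UMIs of S100a8 and 784 of S100a9. Sort and barcode set could not be told apart, since each sort used its own set.

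Malat1 was among the most abundant RNAs of every library. Its level was 3239, 2432, 4989 and 5392 CPM in Dlk1- replicates 1 to 4 and 4432, 3275, 6357 and 6116 in Dlk1+ replicates 1 to 4. It ranked between 10 and 28 among all genes of a library by UMIs, and its 12269 UMIs made up 0.471% of all UMIs of the 541 cells. The 4 libraries of plate 6 were the 4 highest, and the sorts overlapped.

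**Figure D1:**
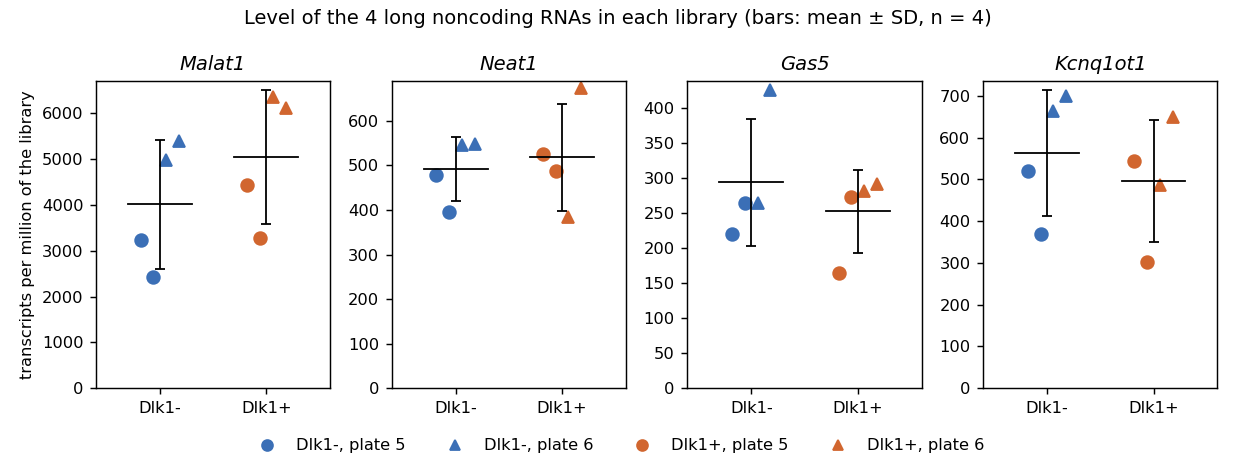
CPM (vertical axis) for each of the 4 RNAs in each of 8 libraries, by sort (colour) and plate (symbol); the black lines are the mean ± SD of 4 libraries. The Malat1 libraries of plate 6 lie between 4989 and 6357, above those of plate 5 between 2432 and 4432, and the sorts overlap in every panel.

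Neat1, Kcnq1ot1 and Gas5 lay well below Malat1 in every library, on a UMI scale that is not divided by length because the method tags 1 end of an RNA. Neat1 was at 480, 395, 545 and 547 CPM in Dlk1- replicates 1 to 4 and at 526, 488, 384 and 675 in Dlk1+ replicates 1 to 4. The lowest value came from the shallow Dlk1+ replicate 3, where it rested on 15 UMIs, and the highest from Dlk1+ replicate 4. Kcnq1ot1 was at 520, 369, 665 and 701 CPM in Dlk1- and at 544, 303, 486 and 651 in Dlk1+ replicates 1 to 4. Both replicate 2 libraries were the lowest of their sort.

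Gas5 was at 220, 265, 265 and 426 CPM in Dlk1- and at 164, 273, 282 and 291 in Dlk1+ replicates 1 to 4. Dlk1- replicate 4 was the highest and Dlk1+ replicate 1 the lowest. In group means, Malat1 was at 4013 ± 1409 (SD, n = 4) in Dlk1- and 5045 ± 1458 (SD, n = 4) in Dlk1+ libraries, Kcnq1ot1 at 564 ± 151 and 496 ± 146, Neat1 at 492 ± 71.7 and 518 ± 121, and Gas5 at 294 ± 90.3 and 253 ± 59.3 (SD, n = 4 each). Kcnq1ot1 and Neat1 are neighbours in this order whose ranges overlap. Neat1 and Gas5 overlap as well: the highest Gas5 library exceeded the lowest Neat1 libraries.

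Malat1 was found in nearly every cell. At least 1 UMI was present in 537 of 541 cells (99.3%), and 508 cells held 5 or more. The other RNAs were found in fewer cells, Kcnq1ot1 in 448 (82.8%), Neat1 in 431 (79.7%) and Gas5 in 355 (65.6%). All 4 were found together in 254 cells (47.0%).

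The shallowest library had the lowest shares for these 3. In Dlk1+ replicate 3 Neat1, Gas5 and Kcnq1ot1 were each found in 10 of 26 cells (38.5%, 95% Wilson interval 22.4% to 57.5%), while Gas5 was found in 77 of 94 cells of Dlk1- replicate 4 (81.9%, 72.9% to 88.4%). Intervals cover counting error only. Barcodes of the other sort's set, which should hold no cell, measured the background: 58 of 728 such barcodes (7.97%) held a Malat1 UMI, 22 (3.02%) a Kcnq1ot1 UMI, 6 (0.824%) a Neat1 UMI and 1 (0.137%) a Gas5 UMI, at a median of 33 UMIs per barcode against 4548 in cells. As a share of the UMIs on those barcodes, Malat1 made up 0.245%, against 0.471% in cells, and Kcnq1ot1 0.0972%, against 0.0601% in cells.

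The share of Malat1 varied widely between cells of a library. The median cell of Dlk1+ replicate 4 held 6.31 Malat1 UMIs per 1000, with 3.44 at the 10th and 11.4 at the 90th percentile. In Dlk1- replicate 2, the lowest, these values were 2.42, 0.614 and 5.40. Malat1 took more than 1% of the UMIs in 40 cells and at most 2.46%. No cell reached 1% for any of the other 3, and the highest shares were 0.411% for Neat1, 0.326% for Kcnq1ot1 and 0.159% for Gas5.

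To compare cells at 1 depth, each cell was thinned at random to 1000 UMIs, with values averaged over 20 draws. The variance of Malat1 over its mean was then 1.95 to 2.80 in the 8 libraries, where counting noise alone gives 1. For Gas5 this ratio was 0.815 to 1.15, for Neat1 1.12 to 1.46 and for Kcnq1ot1 1.04 to 1.53. Gas5 means were 0.177 to 0.431 UMIs per thinned cell. The same relative spread between cells raises this ratio less at such low means, so it does not compare Gas5 with Malat1.

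Between the sorts, none of the 4 RNAs passed the test. Transcripts were summed per library and tested with limma-voom over 5666 genes at a Benjamini-Hochberg false discovery rate of 0.05, which called 2 genes (0.0353%), Dlk1 and Timp3, both higher in Dlk1+ and neither a member; 368 genes had an unadjusted p under 0.05. The log2 fold change of Dlk1+ against Dlk1- libraries was 0.32 for Malat1 (SE 0.26, limma-voom adjusted p = 0.845), 0.08 for Neat1 (SE 0.23, adjusted p = 0.963), -0.24 for Gas5 (SE 0.24, adjusted p = 0.877) and -0.20 for Kcnq1ot1 (SE 0.27, adjusted p = 0.906). Over all genes tested the median was -0.04. In all 4 cases the difference was below 1.5 times its standard error. The sign for Malat1 turned to -0.07 (SE 0.34) when only cells of at least 2000 transcripts were summed, which left 4 cells in Dlk1+ replicate 3. Without that library the values were 0.28 for Malat1, 0.24 for Neat1, -0.27 for Gas5 and -0.11 for Kcnq1ot1. Fitted within plates, they were 0.49 on plate 5 and 0.11 on plate 6 for Malat1, and 0.27 and -0.24 for Neat1.

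**Figure D2:**
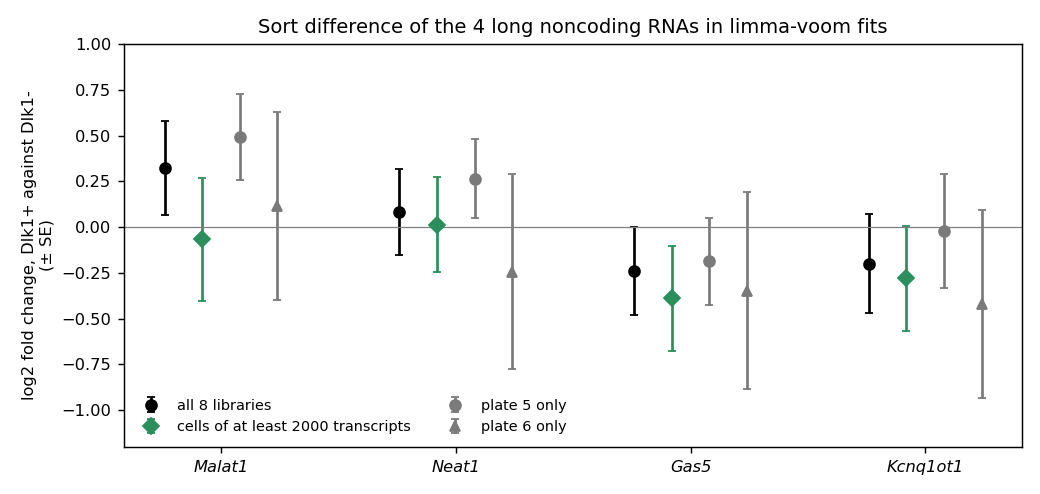
log2 fold change of Dlk1+ against Dlk1- libraries (vertical axis, bars ± SE of the limma-voom fit) for the 4 RNAs, with all 8 libraries, with cells of at least 2000 transcripts, and within each plate. The values with all libraries run from -0.24 for Gas5 to 0.32 for Malat1, and the 2 plates of Neat1 lie on opposite sides of 0.

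At matched depth no member passed either, and Neat1 had the opposite sign to its log2 fold change. Thinned cells held 5.63 ± 1.54 Malat1 UMIs per 1000 in Dlk1+ and 4.51 ± 1.42 in Dlk1- libraries (SD, n = 4 each). The two-sided exact permutation test over 70 assignments gave p = 0.314, or 0.80 adjusted over 8 tests. Neat1 was at 0.515 ± 0.131 and 0.538 ± 0.0477, Gas5 at 0.251 ± 0.0560 and 0.303 ± 0.0887, and Kcnq1ot1 at 0.554 ± 0.173 and 0.595 ± 0.157 in the same order. The unadjusted exact permutation p was 0.80 for Neat1, 0.457 for Gas5 and 0.80 for Kcnq1ot1, and every adjusted p was 0.80. The smallest unadjusted p that this design allows is 0.0286, and a single measure at that value could not pass 0.05 after adjustment over 8 tests.

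The share of thinned cells with a UMI was 94.1% in Dlk1+ and 92.7% in Dlk1- libraries for Malat1, 37.1% and 38.3% for Neat1, 22.2% and 25.5% for Gas5 and 37.0% and 42.1% for Kcnq1ot1. Without thinning, the mean shares over 4 libraries were 68.3% and 82.7% for Neat1, 53.9% and 71.1% for Gas5 and 66.4% and 86.3% for Kcnq1ot1, differences of -14.4, -17.2 and -19.9 percentage points. The wider gap without thinning came with a lower depth of the Dlk1+ cells, whose library medians averaged 3397 transcripts against 5057.

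The Malat1 levels of the plates lay apart, although the plate contrast did not pass the test. Malat1 averaged 5714 ± 633 CPM in the 4 libraries of plate 6 and 3344 ± 823 in the 4 of plate 5 (SD, n = 4 each), and the plates did not overlap. Of the 5666 genes tested, 204 (3.6%) separated the plates in this way, in either direction. In the limma-voom fit with sort and plate the log2 difference of plate 6 over plate 5 was 0.57 for Malat1 (SE 0.23, unadjusted p = 0.0254), but the adjusted p was 0.999. That contrast called 0 genes (0%), with 146 at an unadjusted p under 0.05. For Kcnq1ot1 the log2 plate difference was 0.34 (SE 0.27), for Gas5 0.25 (SE 0.24) and for Neat1 -0.02 (SE 0.25).

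Within each plate, both Dlk1+ libraries had a higher Malat1 CPM than both Dlk1- libraries. The lower Dlk1+ value exceeded the higher Dlk1- value narrowly on plate 5 (3275 against 3239) and more widely on plate 6 (6116 against 5392). Of all genes tested, 128 (2.26%) had this pattern, and 178 (3.14%) separated all 4 Dlk1+ from all 4 Dlk1- libraries in either direction, none of them a member. With plate as a block, the limma-voom log2 fold change of Malat1 was 0.33 (SE 0.23, adjusted p = 0.864), in a fit that again called 2 genes (0.0353%). Permuting sorts only within plates gave an exact two-sided p of 0.111 for the level of Malat1 at matched depth (36 assignments), a test added after seeing the data. The sort difference was not shown to depend on the plate: the limma-voom interaction had an adjusted p of 1.00 for each member and called 0 genes (0%), with 113 at an unadjusted p under 0.05.

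The share of Malat1 was lower in deeper cells. Spearman's rho between the Malat1 share of a cell's UMIs and its transcripts was negative in all 8 libraries, from -0.42 in Dlk1- replicate 3 to -0.16 in Dlk1+ replicate 1, with a mean of -0.32 over libraries of 26 to 96 cells. These are descriptions across cells that share a library, and share and depth have UMIs in common. Malat1 UMIs themselves were higher in deeper cells (mean rho 0.28), but less than in proportion. In Dlk1- replicate 3 the level was 6459 UMIs per 1000000 UMIs in the cells below the median depth and 4367 in those above it, and in Dlk1+ replicate 4 7514 and 5495. The deeper cells had the lower level in all 8 libraries. The shallow Dlk1+ replicate 3 had the highest Malat1 level. Its 22 cells of 1000 to 2000 transcripts held 7267 Malat1 UMIs per 1000000 UMIs. Cells of 2000 to 4000 transcripts gave 7733 and 7291 in Dlk1- replicates 3 and 4 and 7333 in Dlk1+ replicate 4, all of plate 6. On plate 5 the same window gave 4933 in Dlk1- replicate 1 and 5426 and 4324 in Dlk1+ replicates 1 and 2. At this depth the plates were still apart and the sorts overlapped, over the 6 libraries with at least 5 such cells. The order within plates was not seen in this window, since Dlk1+ replicate 2 lay below Dlk1- replicate 1 and Dlk1+ replicate 4 between the Dlk1- libraries of its plate. The 6 cells of 1000 to 2000 transcripts in Dlk1- replicate 4 went the other way, with 4091. In deeper cells of 4000 to 6000 transcripts, Malat1 was at 3532 and 3551 in Dlk1- replicates 1 and 2 and at 5408 in Dlk1+ replicate 1 on plate 5, and at 5039 and 5581 in Dlk1- replicates 3 and 4 and 7352 in Dlk1+ replicate 4 on plate 6. In cells over 6000 transcripts, Dlk1+ replicate 4 had 4571, between 4007 and 4798 in Dlk1- replicates 3 and 4. On plate 5, Dlk1+ replicate 1 had 3236 in that window, above 2674 and 1855 in Dlk1- replicates 1 and 2.

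**Figure D3:**
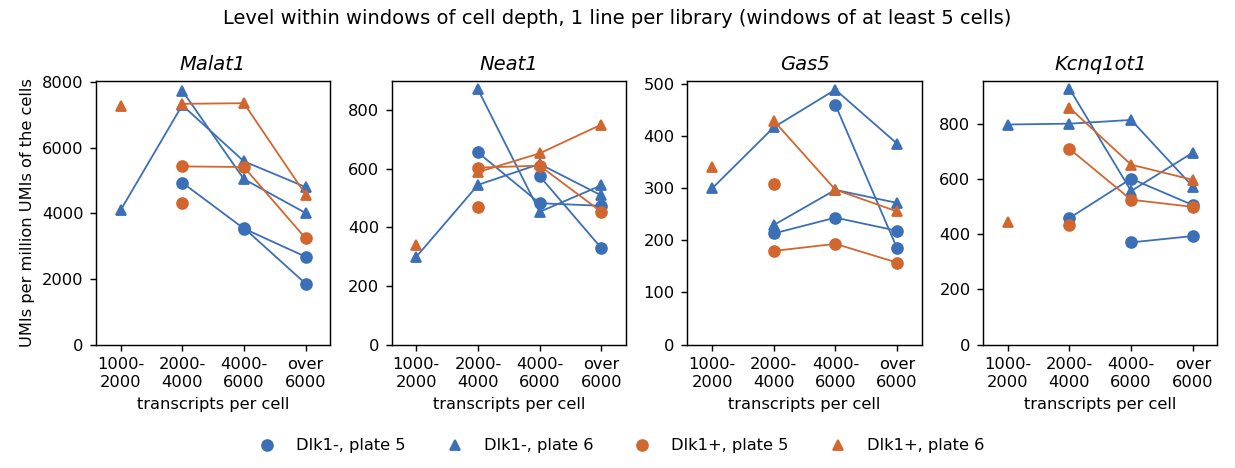
Level in UMIs per 1000000 UMIs (vertical axis) of each RNA in cells grouped by transcripts per cell (horizontal axis), with 1 line per library, coloured by sort and with a symbol for the plate; windows of fewer than 5 cells are left out. Malat1 is lower in cells over 6000 transcripts than in cells of 2000 to 4000 in every library that has both windows, while the lines of the other 3 RNAs run in both directions.

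For Neat1, Gas5 and Kcnq1ot1 the relation to depth did not have 1 sign in all libraries. Mean rho of the share with depth was -0.01 for Neat1 (negative in 4 of 8 libraries), 0.04 for Gas5 (negative in 2) and -0.05 for Kcnq1ot1 (negative in 5). With cells of at least 2000 transcripts it was -0.08, 0.01 and -0.10. The level was lower in the cells above the median depth in 6 of 8 libraries for each of the 3, for example 587 against 858 for Kcnq1ot1 in Dlk1- replicate 3. Their UMIs were higher in deeper cells in all 8 libraries, with mean rho of 0.27, 0.29 and 0.26.

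Malat1 was higher in cells with a larger mitochondrial share. Mean rho between the 2 shares was 0.32, positive in all 8 libraries and between 0.10 in Dlk1+ replicate 2 and 0.60 in Dlk1- replicate 1. With Malat1 taken as a share of nuclear-encoded UMIs other than Gm10800 and Gm26870, mean rho was 0.30, close to that with all UMIs as the denominator. Gm10800 and Gm26870 are repeat-rich predicted genes that took 9.21% to 27.9% of the UMIs of a library. Depth moved with the mitochondrial share, which was lower in cells over 6000 transcripts than in cells of 2000 to 4000 in each of the 5 libraries with at least 5 cells in both windows, for example 9.37% and 13.4% in Dlk1- replicate 1. The part of depth in the relation was not tested. Mean rho with the mitochondrial share was 0.14 for Kcnq1ot1 (positive in 6 of 8 libraries), 0.09 for Neat1 (positive in 6) and -0.03 for Gas5 (positive in 4).

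Gas5 moved with ribosomal protein genes. The rho of its share with the share of ribosomal protein genes was positive in all 8 libraries, with a mean of 0.28 (0.10 to 0.59), and rho with the share of Gm10800 and Gm26870 was negative in all 8 (mean -0.20). These shares are taken from the same UMIs of a cell, so a large share of Gm10800 and Gm26870 lowers the others. The relation was not run with Gm10800 and Gm26870 left out of the total. The matching means for the ribosomal protein share were -0.03 for Malat1, 0.03 for Neat1 and -0.09 for Kcnq1ot1, with both signs among the libraries. Whether the relations of the members differ was not tested. Ribosomal protein mRNAs are known to open with the same kind of tract as the second Gas5 start shown above. By the placement used there, 35.9% of the 78 starts of ribosomal protein genes had one. Whether the tract has a part in the relation was not tested.

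**Figure D4:**
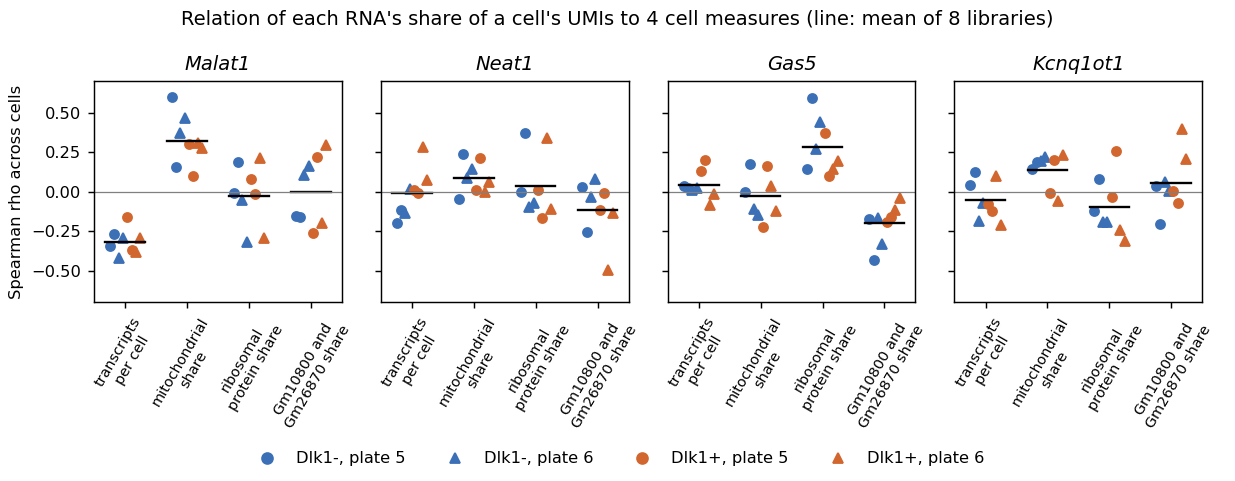
Spearman's rho across cells (vertical axis) between each RNA's share of a cell's UMIs and 4 measures of the cell, 1 point per library, coloured by sort and with a symbol for the plate; black lines are means over 8 libraries. The Malat1 points lie below 0 for transcripts per cell and above 0 for mitochondrial share, and the Gas5 points lie above 0 for ribosomal protein share.

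Among themselves the RNAs were weakly related in thinned cells. Malat1 and Neat1 had a mean rho of 0.12, positive in all 8 libraries, and Malat1 and Kcnq1ot1 one of 0.08, positive in 7. The other pairs lay between -0.04 and 0.03. At 1000 UMIs most cells held 0 or 1 UMI of Neat1, Gas5 or Kcnq1ot1, which limits any rho.

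Among the 191 genes with at least 0.5 UMI per thinned cell, of which 13 (6.81%) were mitochondrial, the genes most like each RNA were sought. For Malat1 they were mt-Rnr2 (mean rho 0.25), Egr1 (0.18), mt-Rnr1 (0.17), mt-Nd2 (0.16) and Pim1 (0.15). These are 2 mitochondrial ribosomal RNAs, an immediate early transcription factor, a subunit of respiratory complex I and a cytokine-induced kinase. The least like were Ppia (-0.17), a peptidyl-prolyl isomerase, and Gm3839 (-0.12), a predicted gene. For Neat1 they were Fos (0.16), Malat1 (0.12), Jund (0.12), Zfp36 (0.10) and Egr1 (0.10). Fos, Jund and Egr1 encode transcription factors and Zfp36 an RNA-binding protein that promotes mRNA decay. The least like Neat1 were Gm21833 (-0.09) and Gm29055 (-0.08).

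For Gas5 all 5 were ribosomal protein genes, which made up 65 of the 191 genes compared (34.0%). They were Rpl37 (0.12), Rpl23 (0.11), Rps6 (0.11), Rpl31 (0.10) and Rpl17 (0.09), and the least like were Gm10800 and Gm26870 (-0.12 each). For Kcnq1ot1 they were mt-Nd4l (0.10), Malat1 (0.08), Gm37954 (0.08), mt-Rnr1 (0.07) and mt-Nd5 (0.07), with Gm3839 (-0.11) and the glycolytic enzyme Gapdh (-0.09) at the other end. All of these are weak relations in sparse counts.

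The proteins and neighbours of the 4 RNAs did not pass the test between the sorts either. Each of 11 gene lists had 0 genes called in either direction in the limma-voom fit. Over all 5666 genes tested, 2 were called (0.0353%), 368 had an unadjusted p under 0.05 and the median log2 fold change was -0.04. The share of positive genes over all genes tested was not counted. Of 17 tested genes of paraspeckle proteins, the partners of Neat1, 5 had a positive log2 fold change and the median was -0.34. The most abundant were Hnrnpk at 354 and Hnrnpa1 at 325 CPM, both RNA-binding proteins (log2 -0.43 and -0.36). Of 25 nuclear speckle and splicing proteins, the compartment of Malat1, 13 were positive with a median of 0.00, and the scaffold proteins Srrm2 and Son had 0.11 and -0.28. Of the 3 tested genes for the cut and binding of the Malat1 end, Rpp14 and Rpp38, both subunits of RNase P, had -0.63 and 0.25, and the median was 0.17. Of the 8 tested neighbours of Malat1 and Neat1, 3 were positive with a median of -0.15, the most abundant being Dpf2 and Ltbp3 (-0.03 and 0.29).

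Of 8 tested snoRNA host genes other than Gas5, 2 were positive and the median was -0.60. Unadjusted p was under 0.05 for 3 of the 8, against 368 of all 5666 genes tested, but none had such an adjusted p. Snhg1 had 0.54 (adjusted p = 0.765) and Snhg8 -1.12 (adjusted p = 0.700 in the limma-voom fit). In 5 of the 8 there was no transcript in at least 1 Dlk1+ library. Of 74 ribosomal protein genes 21 were positive with a median of -0.25, and the abundant Rpl23 had 0.22. An unadjusted p under 0.05 was found for 11 of the 74, against 368 of all 5666 genes tested. Each of the 11 had a negative log2 fold change, and none passed after adjustment. The Dlk1+ libraries differed widely, for example 76.8 to 1869 CPM for Rps24 and 384 to 2204 for Rpl17. In Dlk1- libraries these genes were at 1472 to 1749 and 1874 to 2685. Both low ends came from the shallow Dlk1+ replicate 3. How far the 11 rest on that library was not tested. The other translation genes with such a tract had 4 of 14 positive, a median of -0.13, and Eef1a1 and Tpt1 at -0.79 and -0.50. Eef1a1 ran from 1101 to 8042 CPM in Dlk1+ libraries and Tpt1 from 742 to 3253. Of 9 factors of nonsense-mediated decay, which degrades Gas5, 3 were positive with a median of -0.12, and Smg1 and Rbm8a had -0.29 and -0.12. None of the genes next to Gas5 passed the filter on low counts.

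Of the genes listed for the Kcnq1 domain, 5 were tested, 3 were positive and the median was 0.51. Whether Kcnq1ot1 silences these genes in these cells was not tested. Cd81, a tetraspanin, was at 191 to 273 CPM in Dlk1- and 233 to 435 in Dlk1+ libraries (log2 0.52, limma-voom adjusted p = 0.765). Tspan32, another tetraspanin, had -0.26. Cdkn1c, the cell cycle inhibitor p57 and a known target of Kcnq1ot1, was named after its values were seen: it was at 26.0 to 73.6 in Dlk1- and 74.4 to 117 in Dlk1+ libraries, which did not overlap (log2 0.59, SE 0.31, limma-voom adjusted p = 0.765). Separation of the sorts was found for 3.14% of all genes. Of 3 other long noncoding RNAs tested, Meg3, an imprinted RNA of the Dlk1 locus, had the largest value, 42.1 to 237 CPM in Dlk1- and 176 to 622 in Dlk1+ libraries (log2 1.56, SE 0.43, limma-voom adjusted p = 0.557), and Firre had -0.01.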

How the data were processed

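The 8 tables deposited by the authors hold estimated counts of transcripts per gene and barcode, corrected for UMI collisions and not scaled for depth. Per the submitters' processing notes BWA 0.6.2-r126 and the mm10 build were used; the counting step and its annotation are not given in the sources used here. Inverting the correction with 4096 possible UMIs gave whole UMIs (largest distance 3.64e-12, tolerance 1e-06). Counts were summed per library over cells of at least 1000 transcripts and rounded, genes were kept with at least 10 counts in 4 libraries (scaled to library size) and 15 in all, and limma-voom was run with TMM scaling, written for this work (limma 3.58.1, R 4.3.3). The check could not read the unit of these tables, so the planned edgeR test was not run and limma-voom, the fallback in the design, took its place; DESeq2 was not run either. Summed transcripts were 39066 to 517496 per library. On simulated data for this comparison (5666 genes, 200 of them changed) 2% of 2-fold, 71% of 4-fold and 79% of 8-fold changes were called, with 0, 4 and 7 false calls. The dispersion (spread between libraries beyond counting noise) was set at 0.1 and not estimated from these libraries. The changed genes were drawn at random from all genes tested, so the rates do not give the power for an abundant gene such as Malat1.

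Members and gene lists were chosen with earlier results of these data known. Named genes were the members, the listed genes that passed or else the 2 most abundant of each list, and for each member the 5 genes with the highest and 2 with the lowest mean rho. Some items are not reported here. Spearman's rho was computed within each library, with at least 15 cells, in Python 3.11.15 with scipy 1.17.1. No doublet caller was run. Promoter windows were matched by symbol for 3 of the 4 members in RefSeq (GRCm38.p6). Libraries of a sort use the same barcodes, which therefore name wells and not cells across libraries.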

Additional observations from a re-analysis of the deposited data

Results flagged for a closer look

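Gas5 was at 164 CPM in Dlk1+ replicate 1, against 273 in the next lowest Dlk1+ library, a gap that took 0.859 of the range of the 4 libraries. This library also had the largest share of Gm10800 and Gm26870 (27.9%) and the smallest share of ribosomal protein genes (8.46%) of the 8; the part of these shares in the Gas5 value was not tested. The rho of the Malat1 share with the mitochondrial share was 0.0971 in Dlk1+ replicate 2, with 27 cells, against 0.276 in the next lowest, a gap of 0.844 of the range. Of 48 groups of 4 values examined, 2 had such a gap, and chance alone gives about 1 in 20.

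Signal appeared on barcodes that a library did not use. Malat1 had 58 UMIs there over the 8 libraries, Kcnq1ot1 had 23 and Neat1 had 6, each above the 3 counts that a count of 0 allows. They amount to 0.473%, 1.47% and 0.417% of the UMIs of the same RNA in cells.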

How the results depend on the processing

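The limma-voom and limma-trend adjusted p of the 4 RNAs stayed above 0.05 in every alternative run. The exact tests at matched depth, sign flips over 4 pairs included, are too small for a single measure to pass after adjustment and show nothing about stability. Gas5 kept its sign in all 28 alternatives fitted with limma-voom or limma-trend and in all 17 at matched depth. Kcnq1ot1 kept its sign in the 28. Fold changes that changed sign were Malat1 with cells of at least 2000 transcripts (-0.067) and Neat1 with cells thinned to 1000 UMIs (-0.18), without Dlk1+ replicate 1 (-0.039) and on plate 6 alone (-0.24). Leaving out 1 library gave 0.13 to 0.48 for Malat1, -0.039 to 0.24 for Neat1, -0.34 to -0.11 for Gas5 and -0.38 to -0.01 for Kcnq1ot1. Plates alone, limma-trend, the plate block without Dlk1+ replicate 3 or without Gm10800 and Gm26870, the assignments within plates and the fits without 2 cells were chosen after seeing the data.

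At matched depth the Dlk1+ minus Dlk1- level of Neat1 (main -0.02 UMIs per 1000) was 0.083 with thinning to 2000 UMIs, 0.0011 without Gm10800 and Gm26870, 0.047 without mitochondrial genes, 0.053 from 500 transcripts on and 0.034 without Dlk1+ replicate 3. In the same order its share of cells, main -1.18 percentage points, was 4.21, 1.49, 2.59, 1.79 and 2.48. Kcnq1ot1 (main -0.04) was 0.010 from 500 transcripts on and 0.027 without Dlk1+ replicate 2. The share of cells with Malat1 (main 1.40 points) was -0.0965 without thinning and -1.68 without Dlk1- replicate 2. Without 1 library the levels ran from 0.59 to 1.77 for Malat1, -0.065 to 0.034 for Neat1, -0.08 to -0.01 for Gas5 and -0.11 to 0.027 for Kcnq1ot1, and the shares from -1.68 to 3.28, -3.92 to 2.48, -5.32 to -0.378 and -8.91 to -2.10 points. No mean rho with depth or with the mitochondrial share moved by 1 SD of the libraries in its 12 alternatives; the other relations were not run under alternatives.

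The count of genes called (main 2) was 1 with cells of at least 2000 transcripts, 1 on plate 6, 4 with the 10 barcodes kept, 0 with limma-trend (with 315 genes at an unadjusted p under 0.05), 5 on plate 5, and 4 with the plate block without Dlk1+ replicate 3. Leaving out 1 library gave 1 to 19 calls, 1 without Dlk1- replicate 3 or Dlk1+ replicate 2 and 19 without Dlk1+ replicate 4, and none was a member; the causes were not tested. With the replicate number as a block 1 gene was called and Malat1 had a log2 fold change of 0.33 (limma-voom adjusted p = 0.830). Deviations of same-numbered libraries correlated by 0.03 to 0.04, above every pair of unlike numbers (-0.04 to 0.01). These values are small, and whether the numbers pair the libraries is not settled by them. The main fit left the libraries unpaired. The SE of Malat1 was 0.19 with the replicate block, against 0.26 in the main fit. Planned edgeR and DESeq2 fits were not run. At the simulated dispersion of 0.1, which was set and not estimated from these libraries, 2% of 2-fold, 71% of 4-fold and 79% of 8-fold changes were called.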

Other observations

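In 16 of the 541 cells the ribosomal protein genes made up under 2% of the UMIs, against a median of 11.3% over all cells. These cells were picked after their values were seen. Gm10800 and Gm26870 took 15.8% to 83.6% of their UMIs. Over all 541 cells Malat1 had 12269 UMIs and Gas5 had 741, and Gas5 was found in 65.6% of the cells. Gas5 had 0 UMIs in each of the 16, and Neat1 in several of them, while Malat1 was present in 15 of the 16. Dlk1+ replicate 4 held the exception, a cell of 8786 UMIs with 0 UMIs of Malat1, Neat1 and Gas5 and 25 of Kcnq1ot1, which was then the gene of rank 16. In that cell 53.4% of the UMIs came from Gm10800 and Gm26870 and 1.22% from mitochondrial genes. The cell with the highest Malat1 share of all, 24.6 per 1000, was another of the 16 and had 50.9% mitochondrial UMIs (Dlk1- replicate 3).

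Malat1 was missing in 4 cells, 3 of them deep: besides the cell above, 2 cells of Dlk1- replicate 1 with 8461 and 5125 UMIs had 0 UMIs of Malat1, Neat1 and Gas5 while 49.8% and 49.0% of their UMIs came from Gm10800 and Gm26870. Their ribosomal protein shares were 6.74% and 8.25%. Dlk1+ replicate 4 also held the cell with myeloid markers, of 36327 UMIs, which had 109 Malat1, 42 Neat1, 6 Gas5 and 14 Kcnq1ot1 UMIs, the highest UMI counts of Malat1 and Neat1 in any cell. Its Malat1 share was 3.00 per 1000 and its Neat1 share 1.16. Without these 2 cells of Dlk1+ replicate 4, an alternative chosen after seeing the data, the limma-voom log2 fold changes were 0.35 for Malat1, 0.06 for Neat1, -0.22 for Gas5 and -0.22 for Kcnq1ot1.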
